A study of Mus musculus with 3 samples.

Results

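The tight junction genes were examined in mouse kidney RNA from 3 Affymetrix arrays. They were chosen by symbol alone: claudins, the zonula occludens scaffolds, occludin and its relatives, junctional adhesion molecules, and the polarity proteins that build the junction, together with *Esam* and *Cxadr*. The symbols matched 43 of the 18194 genes with a named probe set, by 92 probe sets in all. *Pals1* was listed on this platform under its older symbol *Mpp5*, which the choice did not cover, and other genes of these families were not analysed here. Each gene was read from its probe set with the highest mean signal, and 35 of the 43 passed a filter on dim signals that 11147 of the 18194 genes passed. The rule used names and not measured values, but the family was picked with earlier results of these data known.

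All mice were male C57BL/6J of 16 weeks, and all had lost 1 kidney. The control group, 1 array, had uninephrectomy alone; the series design names a sham operation as the alternative to banding. The cardio-renal syndrome group, 2 arrays, had the abdominal aorta constricted below the branching of the renal arteries and lost 1 kidney 2 weeks later. The remaining kidney was homogenised whole 6 weeks after that, so fewer cells of a type and less RNA per cell cannot be told apart. The labels do not say how many mice an array holds, and the spread between these samples may be technical.

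Tight junctions seal the space between epithelial cells near their apical side and decide which ions pass through it. Claudins form the strands and the pores. MARVEL proteins such as occludin and tricellulin organise the strands, zonula occludens proteins and cingulins tie them to actin, and the PAR, CRUMBS and PATJ polarity proteins place them. In the kidney each nephron segment has its own claudins. Examples are the cation pore claudin-2 in the proximal tubule, divalent-cation pores in the thick ascending limb, and tight or chloride-permeable claudins in the collecting duct.

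Setting the groups side by side addresses what aortic banding adds, at the junctions, in mice that have already lost 1 kidney. None of the 35 tight junction genes passed limma's test after Benjamini-Hochberg adjustment (adjusted p = 0.9998 for each), as was so for all genes (0% of 11147). *Cldn1* alone had an unadjusted limma p under 0.05, at 0.0164, against 2.51% of all genes. Higher in both cardio-renal arrays were 12 of the 35 (30.6% of all genes), lower in both were 10 (29.8% of all genes), and 13 had opposite signs (39.6% of all genes). Taken singly, array 1 was above the control for 19 of the 35 (51.6% of all genes) and array 2 for 18 (49.3%). Their median log2 difference was 0.036 in array 1 and 0.006 in array 2, and that of all genes was 0.008 and -0.003. None was 1.5-fold apart from control in both cardio-renal arrays in either direction, as were 0.511% of all genes on the higher side and 0.35% on the lower. These shares lie near those of all genes. The fit has 1 residual degree of freedom, and an exact permutation of 3 arrays cannot give a p below 0.333. Each cardio-renal array was set against the same control array, so a direction shared by both can come from that array alone.

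**Figure D1:**
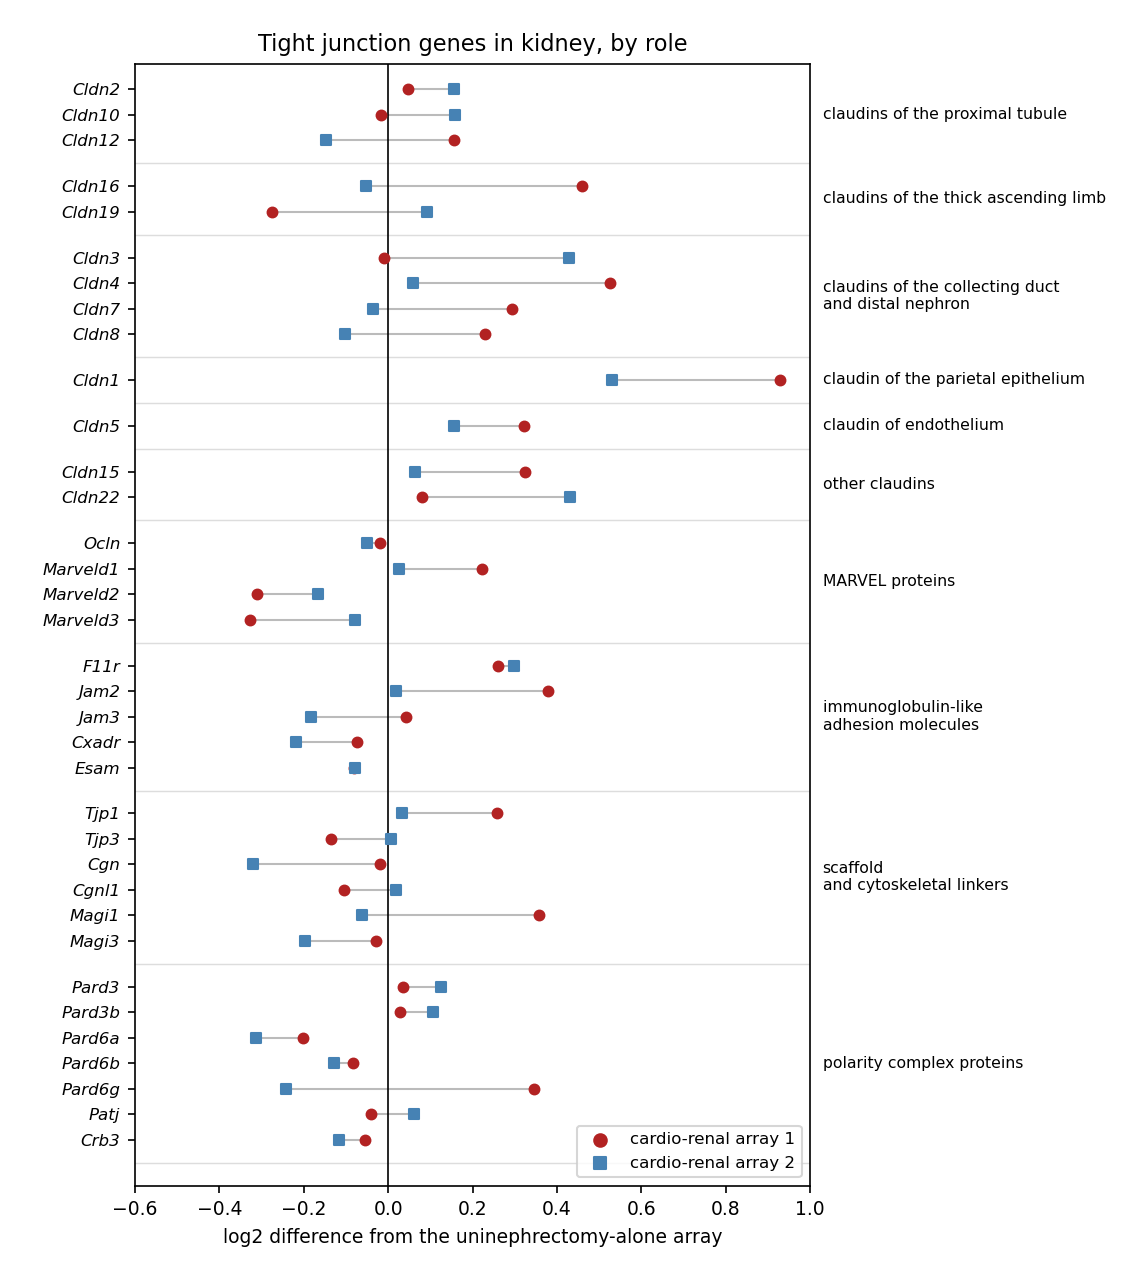
Log2 difference from the uninephrectomy-alone array (x axis) for the 35 tight junction genes past the dim filter, grouped by role; each circle is cardio-renal array 1, each square cardio-renal array 2, and a grey line joins the pair. *Cldn1* lies furthest right, at 0.93 and 0.53, and 13 genes have their symbols on opposite sides of 0.

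Array 1 stood apart from the others in some genes outside this family, but not in all of those given here. All 10 measured male-biased kidney genes of a list of 12 were lower in array 1 than in the control, with a median of -0.87 against 0.03 in array 2. Of 6 measured female-biased kidney genes, 4 were above the control in array 1 (median 0.59) and 5 in array 2 (median 0.19). The immunoglobulin heavy chain gene *Ighm* had signals of 104, 2246 and 53.6 in the control, array 1 and array 2. Of 7 lymphocyte markers measured, *Ighm* among them, 3 were above the control in array 1 and 1 in array 2. The B-cell markers *Cd79a*, *Cd79b* and *Ms4a1* were lower in array 1 than in the control. They were below the dim filter, where the order of arrays has little meaning. Of 14 heart muscle markers, 13 lay above the control in each cardio-renal array and 1, *Myh7*, below it, at 66.9, 12.6 and 54.1. Only 4 of the 14 passed the dim filter; summed over all 14, the signals were 591, 2634 and 2011 in the order control, array 1, array 2. *Umod*, the uromodulin of the thick ascending limb, had signals of 28134, 26237 and 28669. The podocyte gene *Nphs1*, nephrin, had 171, 174 and 165. Of 8 podocyte markers, 7 were above control in array 1 (median 0.19) and 2 in array 2 (median -0.03). Whether the array 1 pattern or the heart transcripts bear on the tight junction genes was not tested, and the file gives no scan date or other batch.

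*Cldn1*, which seals barriers in skin and is known in kidney from the parietal cells of Bowman's capsule, lay furthest above control. Its signal was 262 with uninephrectomy alone, 525 in cardio-renal array 1 and 392 in array 2. Both cardio-renal values lay above the control, by a mean log2 difference of 0.73 ± 0.28 (SD, n = 2). Ranked by the smaller of the pair of differences, *Cldn1* was number 79 of the 3416 genes higher in both arrays. This rests on 1 of its 4 probe sets, of the type whose probes are common to several transcripts. The next brightest had signals of 102, 97.3 and 85.9 and lay just under the dim filter, with differences of -0.05 and -0.19. Averaged over all 4 probe sets, the *Cldn1* difference was 0.05 in array 1 and 0.02 in array 2.

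*F11r*, the junctional adhesion molecule JAM-A, was next in rank. Its signals of 735, 887 and 911 gave a mean log2 difference of 0.28 ± 0.03 (SD, n = 2). Here the cardio-renal arrays lay close together and apart from the control, and limma's unadjusted p was 0.142. Its other probe set, below the dim filter, also lay higher, with signals of 49.2, 104 and 101. JAM-A is an immunoglobulin-like protein that recruits the PAR complex to new junctions. *Cldn5*, the claudin of endothelium, followed with signals of 243, 311 and 275 and a difference of 0.24 ± 0.12. Over 14 endothelial markers the median difference was 0.10 in array 1 and -0.05 in array 2, and 5 of them were higher in both; their part in the *Cldn5* value was not tested. *Cldn22* had signals of 113, 121 and 163 (0.26 ± 0.25). *Cldn15*, a cation pore best known from intestine, had signals of 284, 362 and 297 (0.19 ± 0.18). For *Cldn22* and *Cldn15* the spread between the cardio-renal arrays was nearly as large as the mean difference.

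**Figure D2:**
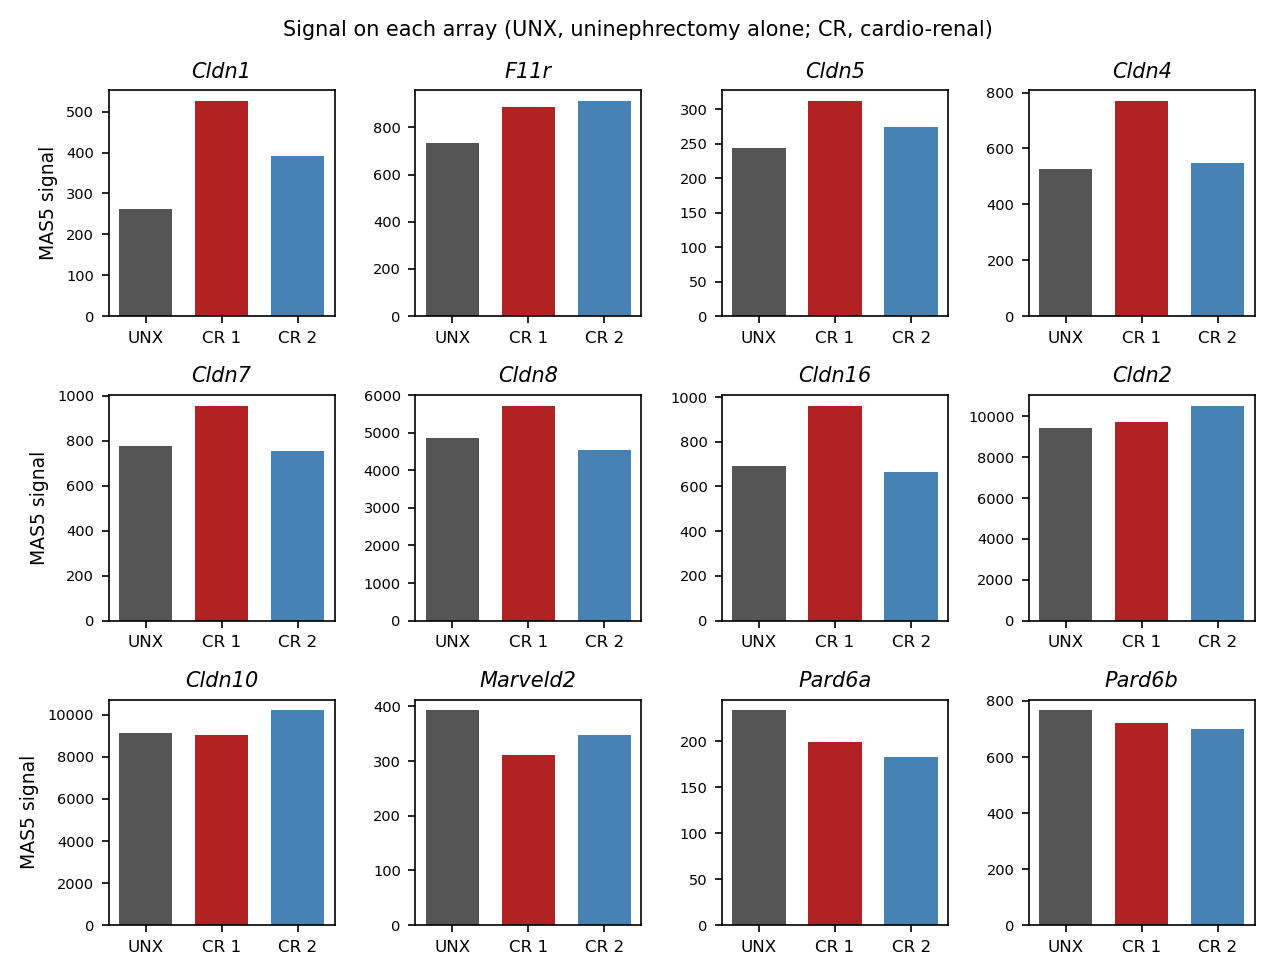
MAS5 signal (linear y axis from 0, arbitrary units, scaled per gene) on each of the 3 arrays for 12 tight junction genes; each bar is 1 array, so no error is drawn. *Cldn1* and *F11r* are higher on both cardio-renal arrays, *Cldn4*, *Cldn7*, *Cldn8* and *Cldn16* mainly on array 1, and *Marveld2*, *Pard6a* and *Pard6b* are lower on both.

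The collecting duct claudins differed more between the cardio-renal arrays than between array 2 and the control. *Cldn4*, which with *Cldn8* forms a chloride-permeable paracellular path, had signals of 526 in the control, 769 in array 1 and 548 in array 2. *Cldn8* had signals of 4871, 5718 and 4536. *Cldn7*, a basolateral claudin of the distal nephron, had signals of 774, 955 and 754. For all 3 genes array 1 was the highest array and array 2 lay close to the control. Their log2 differences in array 1 were 0.52, 0.23 and 0.29 for *Cldn4*, *Cldn8* and *Cldn7*, and in array 2 they were 0.06, -0.10 and -0.04. Array 1 was the highest of the 3 arrays for 14 of the 35 tight junction genes, and for 39.1% of all genes. Of 15 collecting duct markers, 10 were above control in array 1 (median 0.18) and 6 in array 2 (median -0.02). Their summed signals over 16 measured genes were 20468, 22654 and 20722 in the control, array 1 and array 2. Of 9 urothelial markers, 4 past the filter, 7 were above control in array 1 and 4 in array 2, and their summed signals were 812, 1288 and 787. Their part in the claudin values was not tested.

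*Cldn3*, a barrier claudin that lies next to *Cldn4* in the genome, was read by 4 probe sets that differed in which array was highest. The signals of the brightest were 195, 193 and 272, so that array 2 was the high one (0.21 ± 0.31). Its other 2 probe sets past the filter were higher in both arrays, with signals of 149, 187 and 242, and of 115, 188 and 156. The fourth, below the filter, read 57.0, 74.0 and 53.9. Array 1 was the highest for the last pair of these, as for *Cldn4*. Averaged over its 4 probe sets, the *Cldn3* difference was 0.28 in array 1 and 0.34 in array 2.

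In the thick ascending limb, claudin-16 and claudin-19 together make the pore for magnesium and calcium, and claudin-14 blocks it. *Cldn16* had signals of 692, 961 and 666, with array 1 above the other arrays (0.20 ± 0.36). Its partner *Cldn19* had signals of 141, 111 and 152, with array 1 as the lowest (-0.09 ± 0.26). The partners thus lay on opposite sides of the control in array 1, at 0.46 and -0.28 on the log2 scale, and neither passed limma's test (adjusted p = 0.9998). *Cldn14* was below the dim filter, at 66.8, 64.9 and 62.0. The median over 8 thick ascending limb markers was 0.005 in array 1 and 0.016 in array 2.

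*Cldn2*, the cation and water pore of the leaky proximal tubule, had signals of 9425, 9742 and 10514. Its difference was 0.10 ± 0.08, and its second probe set, at 1224, 1633 and 1566, was higher by 0.41 and 0.35. All values of either probe set were above the control, by amounts that differed between the probe sets more than between the arrays. *Cldn10* had signals of 9155, 9048 and 10219 (0.07 ± 0.12). Its cation- and anion-selective isoforms share their 3' part and cannot be separated by the single probe set. *Cldn12* had signals of 3973, 4430 and 3587 (0.0048 ± 0.21), with array 1 above and array 2 below the control; its second probe set had 2109, 2630 and 2171. Proximal tubule markers had medians of -0.002 and 0.072 in arrays 1 and 2 over 14 genes.

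A further 7 claudins were below the dim filter, and their order across arrays has little meaning. *Cldn6* had signals of 37.1, 59.2 and 54.0, *Cldn9* of 71.1, 87.0 and 39.8, and *Cldn18* of 62.6, 42.7 and 76.5. *Cldn13* had 52.3, 6.06 and 27.2 and *Cldn23* 23.9, 7.45 and 21.2. *Cldn11*, the claudin of myelin and testis, had 14.7, 14.0 and 23.0, and *Cldn34d* stayed between 1.12 and 1.49.

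Promoter sequence is shown for 4 claudin and adhesion genes that the values single out. *Cldn1* and *F11r* ranked highest by the smaller of the pair of differences, among the tight junction genes above control in both arrays. *Cldn16* and *Cldn4* were the tight junction genes furthest apart between the cardio-renal arrays after *Pard6g*, which was left out of this choice. Each line gives the 250 bases before the transcription start, 5′ to 3′ on the gene's strand, from RefSeq on GRCm38.p6. Capitals mark a GC box (GGGCGG) or an E-box of the kind bound by Snail repressors (CAGGTG), on either strand.
Cldn1, chr16:26371840-26372089, minus strand: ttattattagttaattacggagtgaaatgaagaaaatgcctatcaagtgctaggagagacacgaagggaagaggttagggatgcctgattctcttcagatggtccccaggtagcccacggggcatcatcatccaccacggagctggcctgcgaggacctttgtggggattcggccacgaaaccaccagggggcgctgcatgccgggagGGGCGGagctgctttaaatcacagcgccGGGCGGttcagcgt
F11r, chr1:171437311-171437560, plus strand: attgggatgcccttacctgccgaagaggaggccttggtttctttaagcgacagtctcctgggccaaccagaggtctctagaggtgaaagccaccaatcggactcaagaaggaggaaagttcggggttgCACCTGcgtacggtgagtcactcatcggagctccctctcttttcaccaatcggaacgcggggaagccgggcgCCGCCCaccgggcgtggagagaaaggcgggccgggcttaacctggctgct
Cldn16, chr16:26462885-26463134, plus strand: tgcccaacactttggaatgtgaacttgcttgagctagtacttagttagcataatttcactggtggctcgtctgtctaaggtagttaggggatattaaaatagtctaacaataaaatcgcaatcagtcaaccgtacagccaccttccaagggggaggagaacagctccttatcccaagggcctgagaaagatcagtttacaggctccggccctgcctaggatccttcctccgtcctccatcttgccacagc
Cldn4, chr5:134946935-134947184, minus strand: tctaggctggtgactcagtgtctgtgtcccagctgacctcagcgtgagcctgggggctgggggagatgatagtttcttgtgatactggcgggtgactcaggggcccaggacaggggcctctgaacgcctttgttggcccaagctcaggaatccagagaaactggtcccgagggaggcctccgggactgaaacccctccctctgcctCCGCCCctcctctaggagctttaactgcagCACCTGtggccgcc
In these windows *F11r* and *Cldn4* hold 1 match to each motif, *Cldn1* holds 2 GC boxes, and *Cldn16* holds neither motif, although *Cldn1* and *Cldn16* are neighbours in the genome. No matches overlapped. Of the 33 tight junction genes with a promoter in the table, 12 held CAGGTG (36.4%), against 19.1% of 17492 protein-coding genes. GGGCGG was present in 23 of the 33 (69.7%), against 45.8%, and TATAAA in 4 (12.1%), against 13.7%. These matches are letters in a window, not measured binding.

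Of the 4 MARVEL genes, 3 lay below the control in both cardio-renal arrays, as did 29.8% of all genes; 4 genes are too few to read this as a property of the group. *Marveld2*, tricellulin, which seals the corners where 3 cells meet, had signals of 393, 311 and 347 (-0.24 ± 0.10). *Marveld3* had signals of 657, 518 and 621 (-0.20 ± 0.18), but its second probe set, at 134, 143 and 202, was higher in both. *Ocln*, occludin, had signals of 1034, 1020 and 998 (-0.03 ± 0.02), while its second probe set read 357, 497 and 432. The direction for *Marveld3* and *Ocln* therefore differed between probe sets of the same gene. *Marveld1* had signals of 857, 1004 and 873 (0.12 ± 0.14) by its brightest probe set. Its other probe sets past the filter read 328, 292 and 310, and 104, 124 and 92.6, so the direction for *Marveld1* differed between probe sets as well.

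Among the immunoglobulin-like molecules other than *F11r*, *Cxadr* was lower by all of its 5 probe sets in both cardio-renal arrays. *Cxadr*, the coxsackievirus and adenovirus receptor of epithelial junctions, had signals of 947, 898 and 809 by its brightest probe set (-0.15 ± 0.10). The next 2 read 413, 369 and 375, and 139, 91.7 and 114. The dimmest 2 were below the dim filter, at 86.8, 65.9 and 67.6, and at 19.1, 3.52 and 4.09. Averaged over the 5 probe sets, with these included, the difference of *Cxadr* was -0.31 in array 1 and -0.28 in array 2. It was the only gene with more than 2 probe sets for which all had the same sign in both arrays. These probe sets read the same RNA samples and are not independent replicates, and limma's adjusted p for *Cxadr* was 0.9998.

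The remaining adhesion molecules are known mainly from endothelium. *Esam* had signals of 1137, 1074 and 1076, and its difference of -0.08 ± 0.0019 had a smaller spread than that of any other tight junction gene tested. *Jam2* had signals of 148, 202 and 151 (0.20 ± 0.26), and *Jam3* of 709, 732 and 621 (-0.07 ± 0.16). Array 1 was the highest for *Jam2* and *Jam3*.

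**Figure D3:**
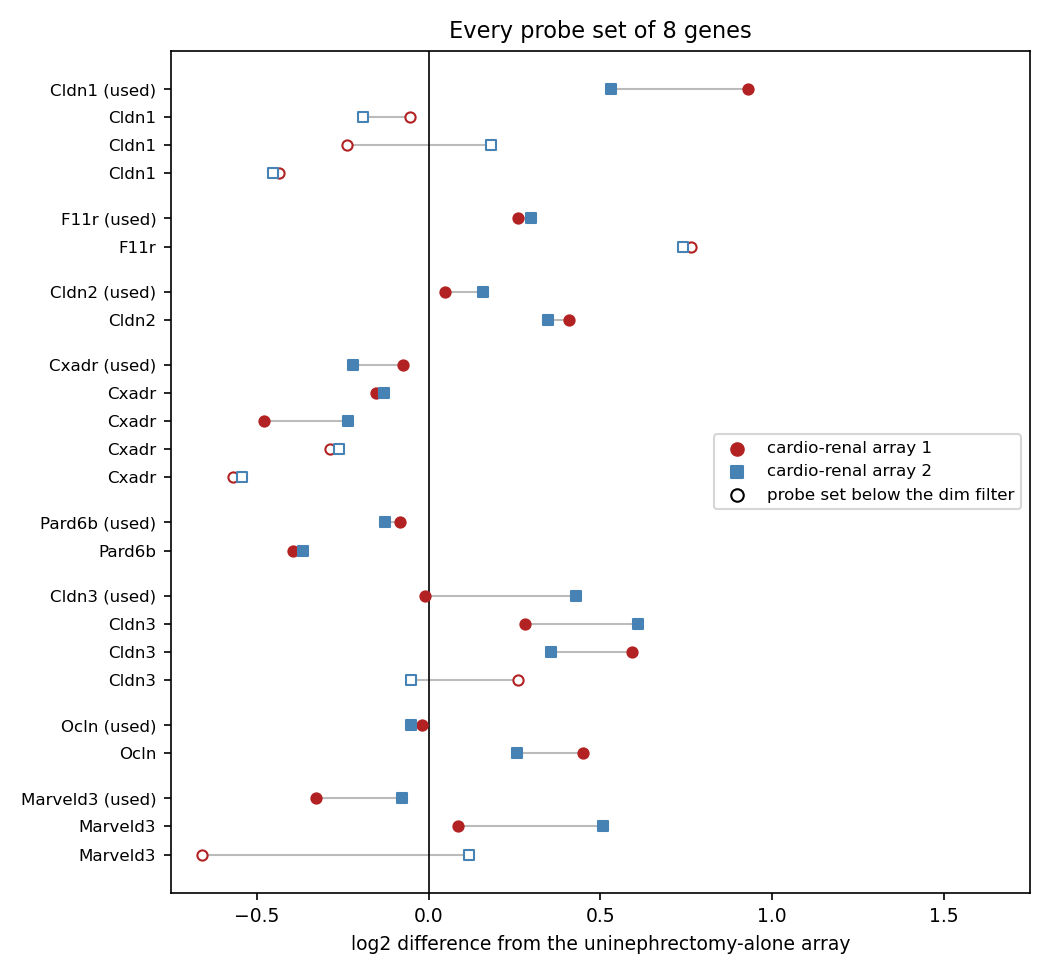
Log2 difference from the uninephrectomy-alone array (x axis) for every probe set of 8 tight junction genes, 1 row per probe set; circles are cardio-renal array 1, squares array 2, and open symbols are probe sets below the dim filter. All 5 *Cxadr* probe sets lie left of 0 and both *F11r* probe sets right of it, whereas the probe sets of *Cldn1*, *Ocln* and *Marveld3* lie on both sides.

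Over the 15 genes with at least 2 probe sets past the filter, all such probe sets had the same sign in array 1 for 5 genes, in array 2 for 7 and in both arrays for 4. Those 4 were *Cldn2*, *Cxadr*, *Pard6b* and *Patj*. For *Patj* the common sign was negative in array 1 and positive in array 2.

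The 6 scaffold and linker genes had a median absolute log2 difference of 0.13, against 0.113 over all genes, with 1 higher in both arrays, 2 lower and 3 of opposite sign. *Tjp1*, the zonula occludens scaffold ZO-1, had signals of 2132, 2557 and 2183 (0.15 ± 0.16), and *Tjp3*, ZO-3, of 158, 141 and 159 (-0.07 ± 0.10). *Cgn*, cingulin, had 307, 303 and 240 (-0.17 ± 0.21). *Cgnl1*, paracingulin, had 3871, 3599 and 3920 (-0.04 ± 0.09) by its brightest probe set. Of its 4 probe sets past the filter, 2 were above control in array 1 and 2 in array 2. The array that differed from control was array 1 for *Tjp1* and array 2 for *Cgn*. The PDZ scaffold *Magi1* was among the 5 tight junction genes furthest apart between the cardio-renal arrays, at 303, 397 and 289 (0.15 ± 0.30). Its second probe set past the filter read 162, 160 and 136. *Magi3* had 897, 879 and 779 (-0.11 ± 0.12) by the brightest probe set and 112, 114 and 126 by the next.

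The tight junction gene furthest below control was a polarity gene, followed by *Marveld2*. *Pard6a*, an adaptor between PAR3, CDC42 and atypical protein kinase C, had signals of 234, 199 and 183, a log2 difference of -0.26 ± 0.08 (SD, n = 2) with a limma unadjusted p of 0.313. It was number 583 of the 3317 genes lower in both arrays. Its paralog *Pard6b* had signals of 767, 723 and 699 (-0.11 ± 0.03), and 588, 440 and 450 by its other probe set. The third paralog, *Pard6g*, had 136, 181 and 111 (0.05 ± 0.42), the widest gap between the cardio-renal arrays among the 35 and the only one of at least 1.5-fold (5.64% of all genes). Its other probe set, below the dim filter, ran the opposite way, at 34.9, 15.2 and 50.5. *Pard6a* and *Pard6b* thus lay below the control in both arrays, and the arrays lay on either side of it for *Pard6g*.

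*Pard3*, the PAR3 scaffold, had signals of 354, 364 and 389 (0.08 ± 0.06), and *Pard3b* of 318, 324 and 344 (0.07 ± 0.06). Dimmer probe sets of both genes had some lower values in the cardio-renal arrays. *Crb3*, the CRUMBS protein of epithelia, had 748, 720 and 688 (-0.09 ± 0.04), and its other 2 probe sets had 675, 730 and 645, and 619, 567 and 416. *Patj*, its PDZ partner, had 1212, 1177 and 1266 (0.0098 ± 0.07), and 576, 501 and 650 by its second. *Mpp5*, the symbol of *Pals1* here, had 1463, 1219 and 1254 (-0.24 ± 0.03); PALS1 joins CRUMBS to PATJ.

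**Figure D4:**
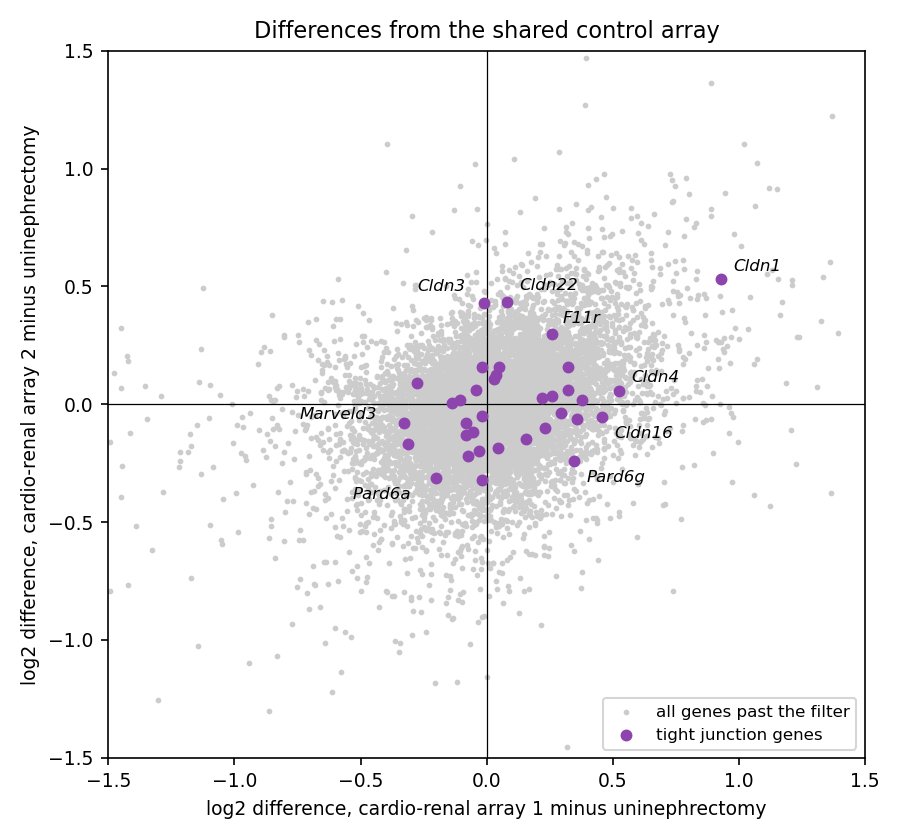
Log2 difference from the uninephrectomy-alone array in cardio-renal array 1 (x axis) and array 2 (y axis); purple points are the 35 tight junction genes and grey points the genes past the dim filter, of which 58 lie beyond the axes. The tight junction genes lie within the cloud of all genes, with *Cldn1* nearest to its edge. Both axes share the control array.

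The spread among the 35 genes, set beside that of all genes, depended on the measure: smaller by SD, but not throughout by the median absolute difference. The SD of their log2 differences was 0.262 between control and array 1 (0.324 over all genes) and 0.2 for array 2 against control (0.244). It was 0.262 for one cardio-renal array against the other (0.322). In the same order, their median absolute log2 differences were 0.156 (0.152 over all genes), 0.117 (0.122) and 0.195 (0.163). Single arrays at least 1.5-fold from control held 1 of the 35 in array 1, *Cldn1*, against 5.01% of all genes, and 0 in array 2, against 2.8%. By this measure the tight junction genes were no further from control than the cardio-renal arrays were from each other.

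Other junction genes were read from lists of names. None of the 19, 29, 15 and 5 genes past the filter in the lists that follow passed limma's adjusted p. Of the adherens junction and desmosome genes, 4 of 19 were above the control in both arrays and 5 below it (medians 0.039 and -0.087 in arrays 1 and 2). *Cdh1*, E-cadherin, had signals of 6471, 6779 and 6111. *Cdh6*, a cadherin of the proximal tubule, had 81.5, 188 and 117 (0.69 ± 0.40), and *Jup*, plakoglobin, 692, 584 and 576 (-0.24 ± 0.01). The control value of *Cdh6* lay below the level of the dim filter. *Cdh6* passed by its mean over the arrays, through its higher cardio-renal values.

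Tight junction regulators and angulins had 8 of 29 genes above the control in both arrays and 10 below it (medians 0.002 and -0.040). *Lsr*, angulin-1, which recruits tricellulin to the corners between cells, had signals of 295, 421 and 432 (0.49 ± 0.02; limma unadjusted p = 0.0438). *Ildr2*, angulin-3, had 3755, 3078 and 3213 (-0.25 ± 0.04), and the scaffold kinase *Cask* 366, 311 and 277 (-0.30 ± 0.11). *Lsr* was thus above the control in both arrays and its binding partner *Marveld2* below it.

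Regulators of the paracellular cation path had 3 of 15 genes above the control in both arrays and 4 below it (medians -0.022 and 0.005). *Egfr*, the receptor of the magnesium-conserving hormone EGF, had signals of 894, 1266 and 1164 (0.43 ± 0.08; limma unadjusted p = 0.0351). *Casr*, the calcium-sensing receptor that acts on *Cldn14* and *Cldn16*, had 479, 574 and 474. *Slc41a3*, a magnesium carrier, had 304, 245 and 189 (-0.45 ± 0.23). Connexins and pannexins had 1 of 5 genes above the control in both arrays and 0 below it in both. That gene was *Gjb1*, connexin 32, with signals of 292, 477 and 366 (0.48 ± 0.25).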

How the data were processed

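Kidney RNA (250 ng) was labelled with a 3' in vitro transcription kit and hybridised to 1 array per sample, per the labels' protocols. The deposited values are intensities, linear MAS5 signals made by the authors with MAS5 per the submitters' processing notes (version not given in the sources used here). Trimmed by 2% at each end, the mean signal of each array was 500.0, so no further scaling was applied; median signals were 100.1, 105.9 and 102.0. Precision is limited by the number of arrays. Detection calls were not used here.

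Probe sets were named from the platform annotation, with symbols updated by Entrez ID from RefSeq (GRCm38.p6): 34958 of 45101 had 1 symbol, 932 several, 9160 none here, and 64 were controls. Values became log2(signal + 28.8), the offset being the 25th percentile, which understates differences of dim genes. The dim filter asked for a mean log2 value of at least 7.01, the median over probe sets other than controls. Limma 3.58.1 in R 4.3.3 (lmFit, eBayes with trend) was run over all 11147 genes, two-sided, Benjamini-Hochberg threshold 0.05; the lone control is assumed to vary like the cardio-renal pair. Limma was also run on 10 simulated data sets of the 11147 genes, with noise drawn as normal at the typical spread for each brightness. There it recovered 81.3% of genes changed by a log2 of 1 and 99.9% of those changed by 2, with 13.6 false calls on average. In the simulation genes of like brightness shared a common spread, which real genes need not. These rates therefore do not give the power in the real data.

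Values after ± are SDs of the 2 differences from control. All members were described, and pathway genes named were up to 3 a list by the smaller difference; *Cdh1* and *Casr* were added for their role. The members, lists and roles were chosen with earlier results of these data known. Alternatives covered normalization, offset, filter, probe set choice, variance prior and each cardio-renal array left out.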

Additional observations from a re-analysis of the deposited data

How the results depend on the processing

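No gene, in the family or outside it, passed limma's adjusted p under quantile normalization, an offset of 1 or 100, no filter, a stricter filter at the upper quartile, the mean of probe sets, without shared-sequence probe sets, or with no trend or a robust trend. Counts of tight junction genes higher or lower in both arrays stayed within 1.5 times under these, except that the stricter filter left 20 genes, 5 of them higher. Their median of the mean log2 difference, 0.064 as reported, was 0.0098 with no filter, 0.0073 with the stricter filter, 0.0333 with the mean of probe sets and 0.0166 without shared-sequence probe sets. Leaving out either cardio-renal array gave 18 to 19 genes higher, 16 to 17 lower, 0 to 1 at least 1.5-fold higher and medians of 0.0059 to 0.0359; the counts grow because 1 array then sets the sign. Without array 1, 9 genes changed sign, *Cldn16*, *Cldn7* and *Cldn8* among them, and without array 2, 4 did. The mean of probe sets turned the sign of 6 genes, including *Ocln* (0.16), and left *Cldn1* below the filter; it gave 0.52 for *F11r*. Without shared-sequence probe sets *Crb3* (0.02), *Magi1* (-0.11) and *Marveld1* (-0.11) changed sign, and *Cldn1* was again below the filter. Counting *Mpp5* as a member, an alternative added after seeing the data, gave 11 lower and a median of 0.058. No paired analysis was possible because the control group has 1 array and the labels give no shared replicate numbers. With 1 control array, its own spread is unknown.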
